A study of Mus musculus with 20 samples.

Results

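The genes described here are the subunits of the oxidative phosphorylation machinery in BV-2 cells, an immortalised mouse microglial line. Members were chosen by symbol among protein-coding genes of the GENCODE mouse annotation: the Nduf, Sdh, Uqcr, Cox4 to Cox8 and Atp5 genes together with the genes of mitochondrial DNA. The rule gave 107 of the 55487 genes in the count table. Of these, 83 nuclear identifiers and 13 mitochondrially encoded genes are subunits of complexes I to V, and 11 share the naming without being subunits (the assembly factors Ndufaf1 to Ndufaf8, and Ndufa4l2, Cox7a2l and Atp5s). Atp5o stands in the table under 2 overlapping Ensembl identifiers, whose separate counts are uncertain. Ndufa4 is placed with complex IV.

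Oxidative phosphorylation takes electrons from NADH through complex I, or from succinate through complex II, passes them by ubiquinone to complex III and by cytochrome c to complex IV, and uses the resulting proton gradient in complex V to make ATP. Complexes I, III, IV and V are built from proteins of both genomes, while complex II is encoded in the nucleus alone. Macrophages and microglia exposed to bacterial lipopolysaccharide (LPS) are known to shift part of their energy metabolism from respiration towards glycolysis, and succinate oxidation by complex II is known to shape their inflammatory response.

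RNA was sequenced from 20 wild-type BV-2 cultures in 4 groups of 5: young untreated, aged untreated, young LPS treated and aged LPS treated, the last pair at 100 ng/ml LPS for 6 hours. Age here is time in culture: the aged cells were expanded from frozen stocks made after long-term cultivation of the same line, and the young cells came from an early passage, so neither group holds cells of an old or a young animal and the design follows 1 cell line. Replicate numbers 1 to 5 are labelled as batches, each with 1 culture of every group, and nothing in the labels says that the aged replicates came from separate long-term cultivations, so the p-values measure the spread between these cultures. Total counts ranged from 11371508 to 16829292 per library.

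The libraries carried microglial or macrophage transcripts, with 10 of 12 markers at a mean of at least 1 CPM (counts scaled to the library's effective size) and a summed level of 2546 to 4657 CPM. P2ry12 and Cx3cr1, which define resting microglia, were low, at 1.17 ± 0.57 and 1.05 ± 0.62 CPM (mean ± SD, n = 5) in young untreated cultures. None of 13 markers of neurons, astrocytes, oligodendrocytes and endothelium reached a mean of 1 CPM, and their summed level stayed between 0.415 and 2.04 CPM.

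Sequence is shown first for the mitochondrially encoded members, because several of them have a near-identical nuclear copy and several were near 0. Of the 13, 7 passed the filter on low counts: mt-Nd1, mt-Nd2, mt-Nd4, mt-Nd5 and mt-Nd6 of complex I, mt-Cytb of complex III and mt-Co1 of complex IV. The other 6 (mt-Nd3, mt-Nd4l, mt-Co2, mt-Co3, mt-Atp6 and mt-Atp8) never held more than 20 counts in a library, although mt-Co2 and mt-Co3 encode core subunits of the same enzyme as mt-Co1. Per kilobase, mt-Co1 stood at 2074 CPM averaged over the 20 libraries and mt-Nd1 at 1787 CPM, whereas mt-Co2 stood at 0.49 and mt-Nd3 at 0.145 CPM.

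GENCODE annotates a nuclear copy of this stretch of mitochondrial DNA on chromosome 1 (GRCm38, chr1:24611535-24616197, minus strand) with 7 pseudogenes in the order of the mitochondrial genes. The first 150 bases of mt-Co2 (chrM:7013-7696, plus strand) and of its copy Gm28661 (chr1:24614885-24615565, minus strand) are shown because every letter is the same, and the first 60 bases of mt-Nd3 (chrM:9459-9806, plus strand) and Gm28438 (chr1:24612775-24613119, minus strand) because they hold the only mismatch of that pair, which is in capitals.
mt-Co2: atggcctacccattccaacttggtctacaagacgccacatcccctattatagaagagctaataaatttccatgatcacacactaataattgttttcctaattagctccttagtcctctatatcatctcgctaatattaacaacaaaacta
Gm28661: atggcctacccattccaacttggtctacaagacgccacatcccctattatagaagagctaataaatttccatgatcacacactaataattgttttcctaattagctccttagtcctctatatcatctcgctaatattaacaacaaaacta
mt-Nd3: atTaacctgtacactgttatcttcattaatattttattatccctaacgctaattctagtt
Gm28438: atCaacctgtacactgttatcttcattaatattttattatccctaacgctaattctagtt
The Gm28661 transcript matched mt-Co2 at 681 of 681 bases, and Gm28438 matched mt-Nd3 at 344 of 345, with the substitution T3C counted from the first base of mt-Nd3. The copies of mt-Atp6 (Gm10925, 678 of 678), mt-Co3 (Gm28437, 783 of 783) and mt-Nd4l (Gm10222, 294 of 294) had no mismatch either.

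Among the 6 mitochondrially encoded genes near 0, 5 shared 98.0% to 100% of their 50-base windows with an annotated transcript elsewhere in the genome. mt-Nd1, mt-Cytb and mt-Nd6 shared none, mt-Nd5 and mt-Nd2 shared 7.61% and 8.19%, and mt-Co1 and mt-Nd4 shared 51.1% and 62.2%. The 7 pseudogenes themselves held at most 43 counts in any library, so reads of the shared windows were not counted there in number. mt-Atp8, which lies after mt-Co2, shared no 50-base window with an annotated transcript elsewhere and was near 0 as well. Its end (chrM:7766-7969) overlaps the start of mt-Atp6 (chrM:7927-8607), which Gm10925 matches from base 1 without a mismatch. That overlap is shorter than a window, so the windows could not show it. The windows were compared with annotated transcripts alone, and the 233 bases between Gm28661 and Gm10925 on chromosome 1 hold no annotated gene. The stretch between mt-Co2 and mt-Atp6 is 230 bases long. These stretches were not aligned, so whether the rest of mt-Atp8 has a nuclear copy was not tested. How reads that align to several places were counted is not given in the sources used here, and its part in these values was not tested. Whether the levels of mt-Co1 and mt-Nd4 are read too low was not tested, so mitochondrial genes are not ranked further here.

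**Figure D1:**
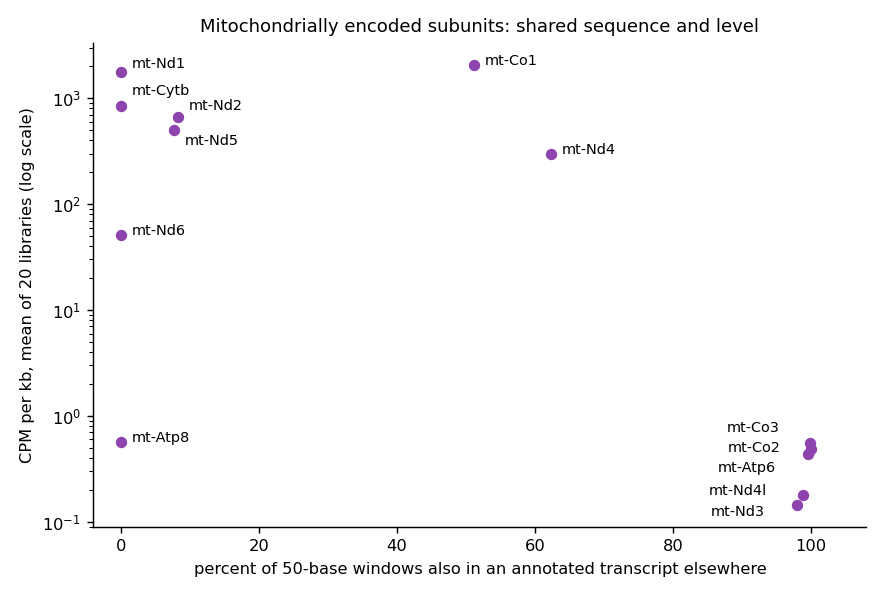
Each point is 1 of the 13 mitochondrially encoded subunits, with the percent of its 50-base windows found in an annotated transcript elsewhere on the x axis and its CPM per kilobase averaged over 20 libraries on a log y axis. The 5 genes at 98.0% or more lie below 1 CPM per kilobase, mt-Atp8 lies there too at 0% of windows shared, and the other 7 lie between 51.2 and 2074.

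The 7 readable mitochondrial genes varied more between cultures of 1 group than the nuclear members did. The SD of log2 CPM within groups had a median of 0.382 over these 7 genes, against 0.109 over the 78 nuclear subunits tested and 0.145 over all 12799 genes tested. The share of all counts on the 13 mitochondrially encoded genes was 0.636%, 0.898%, 1.01%, 0.988% and 0.701% in young untreated replicates 1 to 5, and 0.603%, 0.855%, 0.975%, 1.22% and 0.904% in aged untreated replicates. After LPS it was 0.487%, 0.625%, 1.06%, 0.954% and 0.632% in young replicates and 0.479%, 0.685%, 0.625%, 0.768% and 0.77% in aged ones. All 4 groups overlapped, and batch 1 was the lowest in each of them.

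Within batches, the mitochondrial share was lower after LPS in 5 of 5 aged pairs, at 0.629 to 0.851 of the untreated culture of the same batch. In young cells it was lower in 4 of 5 pairs, at 0.696 to 1.04. The group means were 0.912% ± 0.22 without and 0.665% ± 0.12 with LPS in aged cells and 0.847% ± 0.17 and 0.751% ± 0.24 in young cells (SD, n = 5). These shares are scaled by library size alone, where most genes fell with LPS. On that scale the median log2 fold change over all genes tested was -0.23 in young and -0.16 in aged cells. The median of the tested mitochondrial genes was -0.24 and -0.53, so in young cells it was near that of all genes. In these bulk samples, fewer cells with a transcript, less of it per cell and a changed total of other RNA cannot be told apart.

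**Figure D2:**
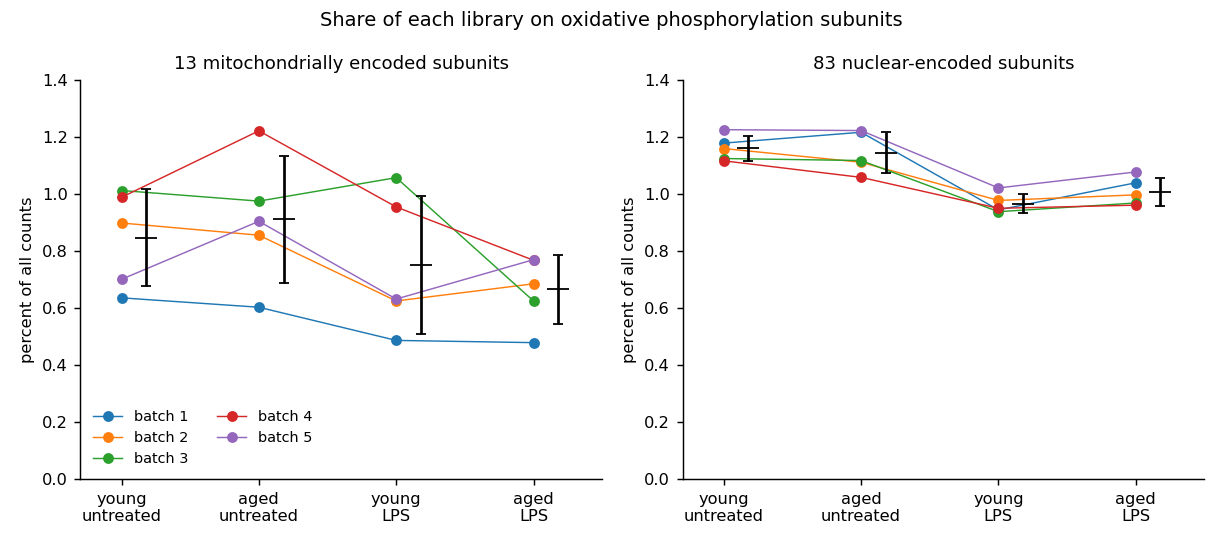
The y axes give the percent of all counts in each of 20 libraries that fell on the 13 mitochondrially encoded subunits (left) and on the 83 nuclear-encoded subunits (right), for the 4 groups on the x axis. Points are cultures, lines join cultures of 1 batch, and bars are the mean ± SD of 5 cultures. The mitochondrial share spreads from 0.479% to 1.22% with batch 1 lowest in every group, while the nuclear share is 1.06% to 1.23% without LPS and 0.938% to 1.08% with it. On this scale the median log2 fold change with LPS over all genes tested was -0.23 in young and -0.16 in aged cells.

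In edgeR's quasi-likelihood test no mitochondrially encoded subunit was called (adjusted p below 0.05 over the 12799 genes tested) in any of the 5 comparisons, and none had an unadjusted p under 0.05. The DESeq2 test also called none. With LPS in aged cells all 7 fitted log2 fold changes were negative, from -0.48 for mt-Nd6 to -0.22 for mt-Co1, with a median of -0.37 beside 0.00 over all genes tested. mt-Nd6 had the lowest level of the 7, at 88 to 874 counts per library. The median standard error was 0.21, and the 95% intervals of the 7 together ran from -1.08 to 0.17. In young cells the median was -0.02 with LPS, with signs in both directions.

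A fit with the batch as a block compares cultures within batches. It called 58.5% of all genes tested after LPS in aged cells, with 3687 of 12799 lower. Of the 7 mitochondrial genes, 5 were called lower there: mt-Nd2 (-0.35, adjusted p = 0.0069), mt-Nd4 (-0.35, 0.00743), mt-Nd1 (-0.32, 0.0208), mt-Cytb (-0.33, 0.0225) and mt-Nd6 (-0.42, 0.0302). These genes encode membrane subunits of complex I, and cytochrome b of complex III. mt-Nd5 (adjusted p = 0.0649) and mt-Co1 (0.144), the latter the catalytic core of complex IV, were not. No mitochondrial gene was called in young cells with the block. The 7 genes moved together between libraries, so they are not 7 separate observations. The difference between the responses, the interaction of age and LPS, was called for none of the 7 with the block or without it, with a median of -0.31 and 95% intervals together spanning -1.16 to 0.54 in the fit without it. Without replicate 1, whose aged LPS library held the lowest value of each of the 7 in its group, 3 of the 7 were called lower after LPS in aged cells without the block. With all replicates and no block, 26.9% of all genes tested were called lower there.

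Values of mt-Co1 show the size of the spread. In aged untreated replicates 1 to 5 it stood at 2146, 3258, 3520, 4432 and 3256 CPM, and in aged LPS replicates at 2065, 2999, 2641, 3244 and 3295 CPM. The groups overlapped, and 4 of 5 batches were lower with LPS. mt-Nd1, which was lower in 5 of 5 batches, stood at 1461, 1596, 1896, 2701 and 2011 CPM without LPS and at 1182, 1412, 1370, 1774 and 1878 CPM with it.

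Most nuclear-encoded subunits were well measured. Of the 83 identifiers 78 passed the filter, and the 5 that did not (Cox4i2, Cox6b2, Cox7b2, Cox8b and Cox8c) are complex IV isoforms at or near 0 counts. Per kilobase of the union of annotated exons, which counts long rare isoforms too, the median level over all libraries was 38.5 CPM for complex I (36 genes), 94.9 for complex II (4), 70.9 for complex III (8), 80.6 for complex IV (13) and 66.2 for complex V (17). The highest levels per kilobase were those of Cox8a at 374 CPM and of the catalytic ATP synthase subunit Atp5b at 332 CPM. The lowest were Cox6a2 at 1.4, Atp5l at 1.49, Cox7a1 at 1.72 and Ndufb4 at 2.37 CPM. Ndufb4 shared 37% of its 50-base windows with a processed pseudogene on chromosome 15, and 12 of the 83 nuclear identifiers shared at least 10%, among them Ndufs3 (35.8%) and Uqcrb (19.2%), so their counts are uncertain in level. Windows were taken from the longest annotated transcript of each gene, so the percent can be low where that transcript is long. Atp5l shared 469 of 6261 windows (7.49%) of a transcript of 6310 bases. Identifiers under 10% can therefore be uncertain in level too.

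In the isoform pairs of complex IV the widely expressed form stood far above the tissue-restricted one. Cox4i1 stood at 451 ± 28 CPM in young untreated cultures against 0.0524 ± 0.029 for Cox4i2, its lung and hypoxia-linked isoform. Cox6a1 stood at 145 ± 12 against 0.894 ± 0.31 for the muscle isoform Cox6a2, and Cox7a2 at 77.5 ± 7.5 against 1.28 ± 0.46 for the muscle isoform Cox7a1. Cox8b was listed at 0 in all libraries while Cox8a stood at 245 ± 11 CPM. All 3 genes for the c-ring of ATP synthase, whose mature proteins are identical, were expressed, and Atp5g3 was the highest per kilobase at 185 CPM, before Atp5g1 at 25.3 and Atp5g2 at 24.1 CPM.

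The first question of the design was whether long-term cultivation alone moved these genes. No nuclear subunit was called between aged and young untreated cells, where 3.71% of all genes tested were called higher and 7.81% lower. The unadjusted edgeR p was under 0.05 for 9 of the 78, all lower in aged cells. Over all 12799 genes tested it was under 0.05 for 3301, of which 2023 were lower. DESeq2 also called no nuclear subunit. The median log2 fold change was -0.05, beside -0.01 over all genes tested, and 59 of 78 were negative, beside 6852 of 12799. For the 74 subunits with a mean of at least 10 CPM in young untreated cultures, fitted values ran from -0.19 to 0.07 and 95% intervals from -0.35 to 0.28.

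With the batch as a block, 6 of the 78 (7.69%) were called lower and none higher between untreated groups, beside 17.2% of all genes in either direction. Deviations of cultures of 1 batch correlated at -0.214 to 0.275 between ages and at 0.122 to 0.394 within an age, so the block has less support here. They were Cox6a1 (-0.17, adjusted p = 0.00316), Cox8a (-0.13, 0.0125), Ndufa13 (-0.18, 0.0318), Uqcr11 (-0.14, 0.0333), Atp5d (-0.13, 0.0446) and Ndufa6 (-0.13, 0.0498), small subunits of complexes IV, I and III and the delta subunit of the ATP synthase stalk. Ndufa13, Uqcr11, Atp5d and Ndufa6 fall outside the rule for named genes and were chosen after their values were seen.

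**Figure D3:**
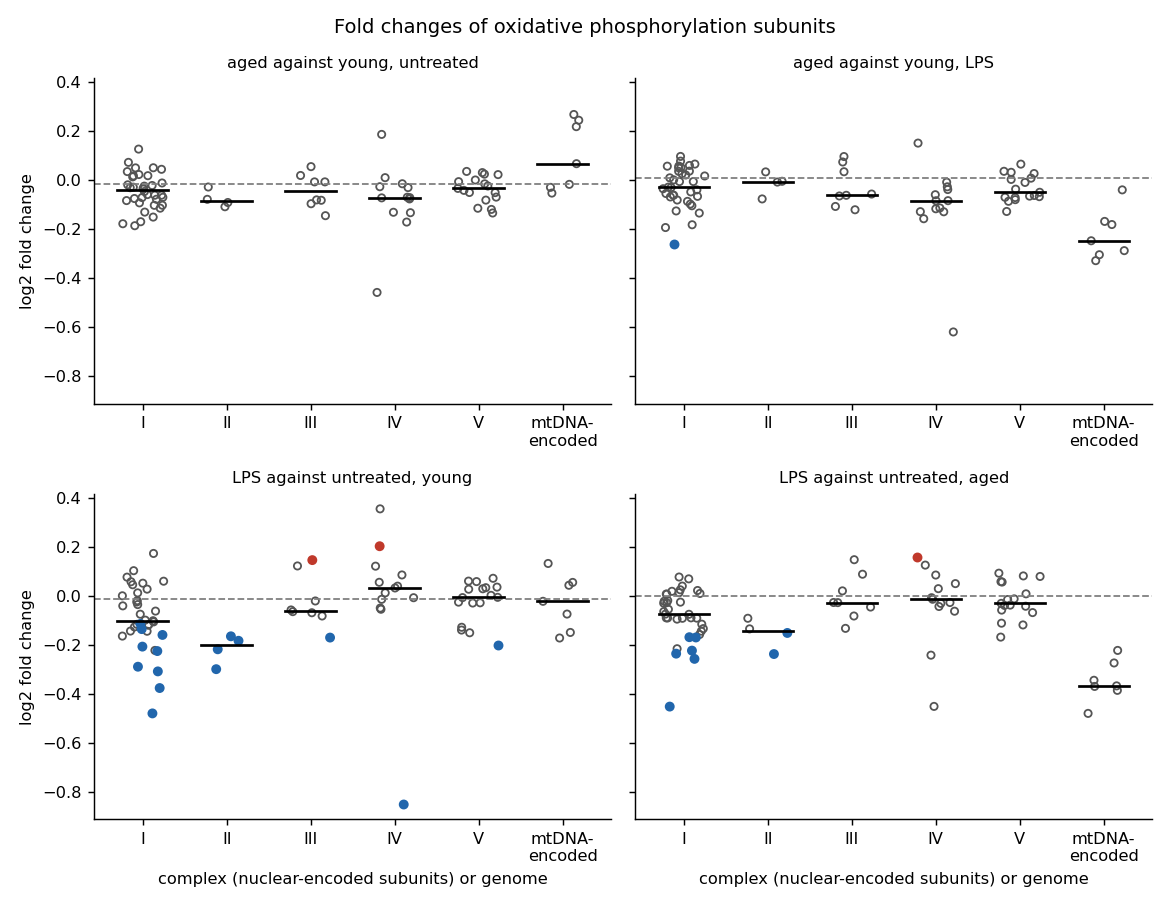
Each panel shows 1 comparison, with the log2 fold change of every tested subunit on the y axis and nuclear-encoded subunits by complex, then the 7 mitochondrially encoded ones, on the x axis. Filled points were called lower (blue) or higher (red), open points were not called, black bars are medians and the dashed line is the median over all genes tested. Of the 18 called points with LPS in young cells 9 are in complex I and 4 in complex II, and the mitochondrially encoded genes sit at a median of -0.37 with LPS in aged cells without a call.

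LPS changed a part of the nuclear subunits in young cells, mostly downward. Of the 78, 16 were called lower and 2 higher, where 33.5% of all genes tested were called lower and 31.2% higher, so 23.1% of the subunits were called against 64.6% of all genes. The sizes were small: the median absolute log2 fold change was 0.08 over the subunits and 0.35 over all genes tested. The median was -0.04 beside -0.01 over all genes. With the block, 27 were called lower and 4 higher, beside 67.7% of all genes in either direction.

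The counts are given by complex, with no test between complexes. All 4 genes of complex II were called lower, where 33.5% of all genes were, and so were 9 of 36 of complex I (25%, under that share), 1 of 8 of complex III, 1 of 13 of complex IV and 1 of 17 of complex V. Cyc1 of complex III has a symbol outside the rule, is not in these counts and was called lower in young cells too, as given below. The medians were -0.20 for complex II, -0.10 for complex I, -0.06 for complex III, 0.03 for complex IV and -0.01 for complex V. Inside complex I, 4 of the 7 nuclear core subunits and 5 of the 29 accessory subunits were called lower. The counts moved with the scaling, since TMM factors were 1.04 to 1.08 in untreated, 0.891 to 0.931 in young LPS and 0.952 to 0.973 in aged LPS libraries. With library size alone, 61 of 78 were called lower and none higher, beside 6401 lower and 2407 higher of the 12799 genes tested. With upper-quartile factors the counts were 35 and none, beside 5122 lower and 3246 higher of all genes. The median over all genes moved from -0.01 to -0.23 and -0.10 under these scalings, in that order. Relative to that median the subunits stood at -0.03 under each of these scalings.

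Complex II is succinate dehydrogenase, the enzyme that joins the citric acid cycle to the respiratory chain. Sdhd, a membrane anchor, stood at 196, 203, 188, 190 and 208 CPM in young untreated replicates 1 to 5 and at 160, 172, 156, 147 and 167 CPM in young LPS replicates, with no overlap between the groups. Its log2 fold change was -0.30 ± 0.05 (SE, adjusted p = 2.95e-05). Sdha, the flavoprotein that oxidises succinate, stood at 540, 526, 522, 544 and 523 CPM without LPS and at 454, 467, 461, 498 and 488 CPM with it. These groups did not overlap either, and the change was -0.16 ± 0.04 (adjusted p = 0.0024).

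The iron-sulfur subunit Sdhb changed by -0.22 ± 0.06 (adjusted p = 0.00536) and the anchor Sdhc by -0.18 ± 0.05 (0.00474) in young cells, with groups that overlapped. In all 4 genes every one of the 5 batches was lower with LPS. In aged cells all 4 were again lower in 5 of 5 batches, with Sdhd at -0.24 ± 0.05 (adjusted p = 0.000543) and Sdhc at -0.15 ± 0.05 (0.0204) called. Sdhb (-0.13, adjusted p = 0.0842) and Sdha (-0.09, 0.0868) were not called there, and with the block Sdhb was (0.0239). Aged and young untreated cells did not differ by a call in any of the 4, and the interaction lay between 0.03 and 0.08 with no call. Sdhc lost its call in aged cells without replicate 5.

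In complex I the largest change was in Ndufv3, an accessory subunit of the flavoprotein part that receives electrons from NADH. It stood at 51.3, 51, 53.1, 50 and 56.9 CPM in young untreated cultures and at 32.3, 43.4, 38, 35.6 and 38.7 CPM with LPS, and at 50.6, 50.6, 44.2, 44.2 and 53.1 CPM in aged untreated cultures and at 36.2, 33.3, 31.4, 33 and 43.3 CPM with LPS. Groups with and without LPS did not overlap at either age. The log2 fold changes were -0.48 ± 0.08 in young (adjusted p = 2.84e-05) and -0.45 ± 0.08 in aged cells (8.65e-05).

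Ndufb10, an accessory subunit of the membrane arm, stood at 65 to 74.8 CPM in young untreated cultures and at 49 to 55.5 CPM with LPS, and at 61.7 to 68.4 and 49.7 to 59.7 CPM in aged cultures. Again no groups with and without LPS overlapped, and the changes were -0.38 ± 0.05 (adjusted p = 2.41e-06) in young and -0.26 ± 0.05 (0.000345) in aged cells. The other called member that the naming rule took was Ndufa5, an accessory subunit of the ubiquinone-reducing part, at -0.24 ± 0.07 (adjusted p = 0.00558) in aged cells and -0.21 ± 0.07 (0.0115) in young cells. Its call in aged cells was lost without replicate 3.

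Of the 7 nuclear core subunits, 4 were called lower in young and 3 in aged cells. These shares of 57.1% and 42.9% stand beside 33.5% and 26.9% of all genes tested, with no test of the list. Ndufv2, the partner of the NADH-oxidising Ndufv1, changed by -0.31 ± 0.06 (adjusted p = 0.000138) in young and -0.22 ± 0.06 (0.0038) in aged cells. Ndufs7, which holds the cluster that hands electrons to ubiquinone, changed by -0.29 ± 0.05 (4.36e-05) and -0.17 ± 0.05 (0.0085), and Ndufs3, a peripheral-arm subunit, by -0.14 ± 0.05 (0.0121) and -0.17 ± 0.05 (0.00314). Ndufs1, with several clusters, was called in young cells alone, at -0.11 ± 0.04 (0.0255), and lost that call without replicate 2 or 4. Ndufv2, Ndufs7, Ndufs3 and Ndufs1, like the accessory Ndufb5 (-0.22, adjusted p = 0.00792) and Ndufa6 (-0.16, 0.0254) in young cells, fall outside the naming rule and were chosen after their values were seen. Ndufa6 lost its call without replicate 2, 3 or 5. Ndufs3 overlaps Kbtbd4 on the opposite strand.

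**Figure D4:**
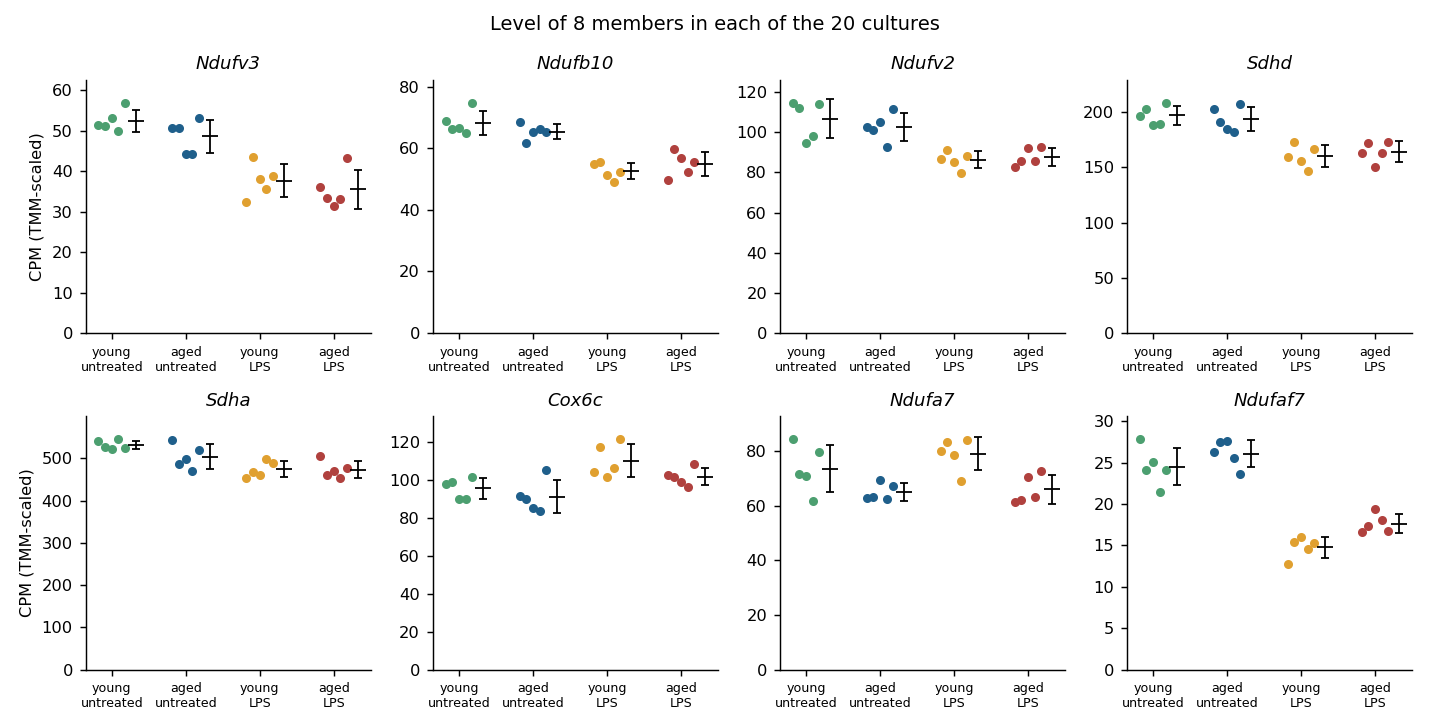
Each panel gives 1 gene, with CPM (TMM-scaled, axis from 0) on the y axis and the 4 groups on the x axis. Points are the 5 cultures in order of replicate number and bars are the mean ± SD. Ndufv3, Ndufb10 and Sdhd lie lower with LPS at both ages without overlap, as does the assembly factor Ndufaf7, whereas Cox6c lies higher with LPS with overlapping groups and Ndufa7 lies lower in aged than in young LPS cultures.

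Complexes III, IV and V held 5 of the 18 calls in young cells, in both directions. Cox6c, a small accessory subunit of complex IV, was called higher with LPS in young (0.20 ± 0.06, adjusted p = 0.00753) and aged cells (0.16 ± 0.06, 0.0382), from 95.5 ± 5.5 to 110 ± 8.6 CPM and from 90.9 ± 8.6 to 101 ± 4.5 CPM (SD, n = 5). It was higher in 5 of 5 batches at both ages although the groups overlapped. Uqcrb, a small subunit of complex III, was called higher in young cells (0.15 ± 0.05, adjusted p = 0.0213). Neither direction held under library size alone, where Cox6c stood at -0.017 in young and -0.0018 in aged cells and Uqcrb at -0.074. Cox6c in aged cells lost its call without replicate 1, 2, 3 or 4, and Uqcrb without replicate 1, 2 or 3.

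Atp5c1, the central stalk of ATP synthase, was called lower in young cells at -0.20 ± 0.05 (adjusted p = 0.000885), and Uqcr11 of complex III at -0.17 ± 0.07 (0.0333), the latter losing its call without replicate 2 or 5. Both were chosen after their values were seen. Cox7a1 was called lower at -0.85 ± 0.32 (0.0250), a value that rests on 0.298 to 1.18 CPM with LPS and 0.791 to 1.86 CPM without, and was lost without replicate 1 or 2. The catalytic ATP synthase genes Atp5a1 and Atp5b, the most abundant nuclear members, stood at 1000 ± 33 and 1381 ± 33 CPM in young untreated cultures and at 981 ± 36 and 1439 ± 42 CPM with LPS, with no call.

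In aged cells 8 of 78 nuclear subunits were called lower with LPS and 1 higher, where 26.9% of all genes tested were called lower and 27.5% higher. With the block the counts were 16 and 3, beside 58.5% of all genes. With library size alone they were 46 and none, beside 5476 lower and 2172 higher of the 12799 genes tested. With upper-quartile factors they were 23 and none, beside 4395 lower and 2736 higher of all genes. All 9 calls were also made in young cells in the same direction, which is 50% of the 18 young calls and 100% of the aged calls. Over all 78 subunits, 60 had the same sign at both ages. Neither measure was set beside the same one over all genes tested. With LPS, 64.6% of all genes tested were called in young and 54.4% in aged cells. Whether the subunits were more alike between ages than other genes was not tested.

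Whether the response differed between ages was tested directly. The interaction of age and LPS was called for none of the 78 nuclear subunits, where 6.39% of all genes tested were called, and none had an unadjusted p under 0.05. With the block none was called either, beside 9.03% of all genes, and DESeq2 called none. The median interaction was 0.02, the same as over all genes tested. For the 74 subunits with at least 10 CPM the fitted values ran from -0.16 to 0.12 and the 95% intervals from -0.49 to 0.45, which leaves room for differences as large as the LPS responses themselves.

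**Figure D5:**
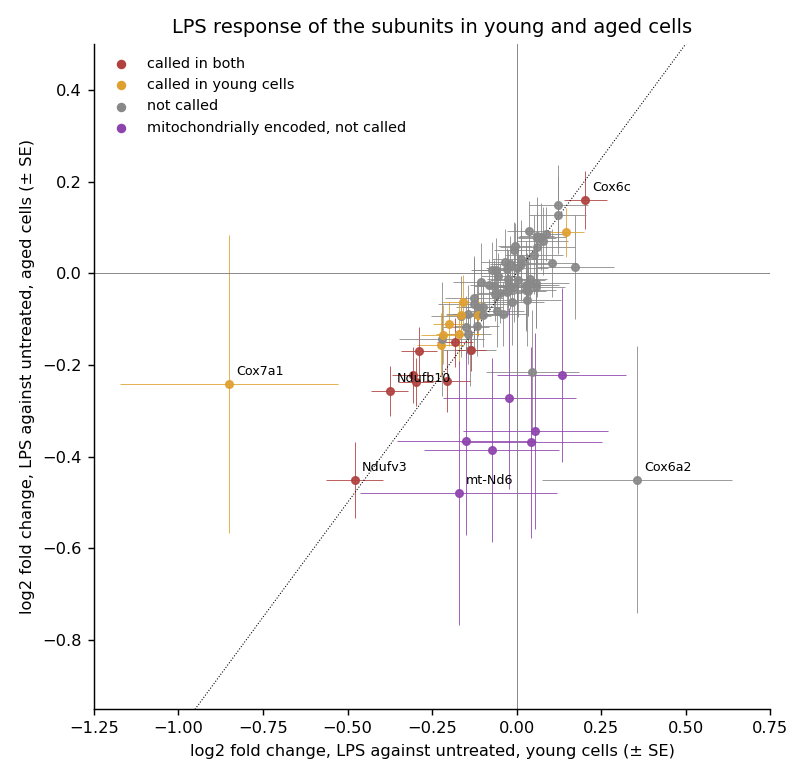
Each point is 1 of the 85 tested subunits, with its log2 fold change on LPS in young cells on the x axis and in aged cells on the y axis, bars giving ± 1 SE, and the dotted line marking equal changes. The 9 nuclear subunits called at both ages (red) run from Ndufv3 near -0.48 and -0.45 to Cox6c at 0.20 and 0.16, and the 7 mitochondrially encoded subunits (purple) lie below the dotted line with wide bars.

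Between aged and young LPS-treated cells, 1 nuclear subunit of 78 (1.28%) was called, where 14.0% of all genes tested were higher and 15.0% lower in aged cells. This was Ndufa7, an accessory subunit of complex I, at 80.1, 83.4, 78.8, 68.9 and 83.9 CPM in young LPS replicates 1 to 5 and at 61.4, 62.2, 70.5, 63.3 and 72.9 CPM in aged ones. It was lower in 5 of 5 batches, with groups that overlapped, and the change was -0.26 ± 0.07 (adjusted p = 0.0117). The call was lost without replicate 2 and with library size alone. With the block, 6 subunits were called lower, beside 33.4% of all genes: Ndufa7, Cox6a1, Cox6b1, Cox6c, Cox7b and Atp5j, of which 4 belong to complex IV. mt-Nd4 was called lower as well (-0.30, adjusted p = 0.0365). The median over the 78 was -0.04 and turned to 0.04 with library size alone, where 4 were called higher and none lower. Of the 12799 genes tested, 3167 were called higher and 1353 lower with that scaling. This comparison shares its LPS cultures with the responses above.

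Promoters are printed for 3 nuclear subunits called lower with LPS in young cells that hold letters of regulators known for this family. RefSeq promoters (GRCm38.p6, 250 bases before to 50 after the start) were matched by symbol for 66 of 82 nuclear subunit symbols, as 71 promoters. The letters searched on both strands were GCGCATGCG for NRF1, CCGGAAGT for GABPA and other ETS factors, TCAAGGTCA for the oestrogen-related receptors (ERR) and AAGATGGCG for YY1. Matches are in capitals in Sdhd (chr9:50603800-50604099, minus strand, ERR), Ndufs7 (chr10:80249199-80249498, plus strand, YY1) and Uqcr11 (chr10:80406772-80407071, minus strand, ETS and then NRF1, which do not overlap).
Sdhd: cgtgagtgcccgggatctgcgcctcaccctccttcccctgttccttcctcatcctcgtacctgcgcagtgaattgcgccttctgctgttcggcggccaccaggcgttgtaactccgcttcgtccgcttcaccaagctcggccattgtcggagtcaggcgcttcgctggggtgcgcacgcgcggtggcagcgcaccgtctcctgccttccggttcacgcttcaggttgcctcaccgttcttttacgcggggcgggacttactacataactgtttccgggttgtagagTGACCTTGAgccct
Ndufs7: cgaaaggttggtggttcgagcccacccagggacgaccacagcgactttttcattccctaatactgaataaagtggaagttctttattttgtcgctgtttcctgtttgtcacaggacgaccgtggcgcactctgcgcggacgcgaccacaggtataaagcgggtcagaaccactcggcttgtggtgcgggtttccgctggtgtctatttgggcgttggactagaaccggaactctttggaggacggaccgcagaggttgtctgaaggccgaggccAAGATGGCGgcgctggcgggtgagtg
Uqcr11: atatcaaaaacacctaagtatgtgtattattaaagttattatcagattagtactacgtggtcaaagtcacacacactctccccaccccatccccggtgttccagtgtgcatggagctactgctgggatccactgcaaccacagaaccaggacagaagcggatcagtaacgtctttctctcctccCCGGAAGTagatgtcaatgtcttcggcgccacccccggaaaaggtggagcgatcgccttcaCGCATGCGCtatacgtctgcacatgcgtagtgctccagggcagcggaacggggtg
The NRF1 letters stood in 8 of 71 subunit promoters (11.3%) and in 1.75% of all 32851 promoters, the YY1 letters in 7 (9.86%) and 1.4%, the ETS letters in 5 (7.04%) and 3.89%, and the ERR letters in 2 (2.82%) and 0.423%. Of the 14 genes called lower in young cells that had a promoter, 4 held any of these letters, against 21 of the 66 matched symbols. A match is a description of these letters and not a measured binding site.

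Some regulators of mitochondrial gene expression and carriers of electrons changed on LPS. Tfam, which packages mitochondrial DNA and takes part in its transcription, fell from 47.1 ± 3.3 to 36.2 ± 3.1 CPM in young cells (log2 fold change -0.38, adjusted p = 3.45e-05) and from 48.9 ± 3 to 40.2 ± 3.2 CPM in aged cells (-0.28, 0.00112). Nrf1 was called higher in aged than young untreated cells (0.23, adjusted p = 0.0376) and was not called on LPS. Ppargc1a was at 0 counts in all 20 libraries, and Ppargc1b was not called, except with the block between aged and young LPS cultures (0.29 without the block, adjusted p = 0.0367 with it). Among the 10 tested biogenesis regulators 3 were called higher and 2 lower with LPS at each age (50%), and among the 31 tested genes of mitochondrial genome expression 11 and 9 in young (64.5%) and 7 and 8 in aged cells (48.4%). Of all genes tested 64.6% and 54.4% were called, so these shares were at or below the background.

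Cycs, cytochrome c, rose with LPS from 69.6 ± 4.8 to 96.1 ± 12 CPM in young cells (0.47, adjusted p = 8.07e-06) and from 76.9 ± 4.6 to 94.7 ± 6.8 CPM in aged cells (0.30, 0.00139). Cyc1, the cytochrome c1 of complex III that passes electrons to it, was called lower in young cells (-0.12, 0.0417) and, with the block, higher in aged than young LPS cultures (0.12 without the block, 0.00693 with it). Ucp2, an inner-membrane carrier, fell by 0.66 on the log2 scale in young (2.49e-07) and by 0.46 in aged cells (5e-05), and with the block it was lower in aged than young untreated cells too (-0.23 without the block, 0.0224 with it). Among the 21 tested genes of ubiquinone metabolism and electron entry outside the rule, 5 were called higher and 8 lower in young (61.9%), and 5 and 6 in aged cells (52.4%), close to the shares of all genes.

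AA467197, a paralog of Ndufa4 that is known to take its place in complex IV of stimulated macrophages, was at 0, 0, 0, 0 and 1 counts in young untreated cultures and at 14, 15, 9, 22 and 6 counts with LPS. All young LPS cultures lay above the floor of 3 counts and all young untreated ones below it. In aged cells it held 0, 0, 0, 0 and 4 counts without and 5, 7, 3, 5 and 7 counts with LPS. No fold is given at these counts. Ndufa4 itself stood at 87.4 ± 11 and 86.5 ± 7.5 CPM in young and at 88.1 ± 11 and 84.3 ± 10 CPM in aged cells without and with LPS, with no call.

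The factors that build the complexes were counted beside them, with no test of the difference. Of 59 tested assembly factors, 25 (42.4%) were called with LPS in young and 26 (44.1%) in aged cells, against 18 (23.1%) and 9 (11.5%) of the 78 subunits and 64.6% and 54.4% of all genes. Between aged and young untreated cells 5 were called (8.47%), all higher in aged cells, where 3.71% of all genes were higher and 7.81% lower. Between LPS-treated cells 11 were higher and 2 lower (22.0% in either direction), where 14.0% of all genes were higher and 15.0% lower. Cox17, the copper chaperone of complex IV, stood at 0.80 and 0.63 on LPS in young and aged cells (adjusted p = 1.24e-10 and 1.22e-08), and was chosen after its values were seen.

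The 10 tested genes that carry a subunit-like name without being subunits held 1 call between untreated groups, 2 with LPS at each age and 2 between LPS groups, and none in the interaction. These shares of 10% to 20% lay under those of all genes in either direction. The calls between ages were all higher in aged cells, where 3.71% of all genes were higher without LPS and 14.0% with it. With the block the counts were 3, 3 in young, 2 in aged and 3. Ndufaf7, a complex I assembly factor, stood at 27.8, 24.1, 25, 21.5 and 24.1 CPM in young untreated and at 12.7, 15.4, 16.1, 14.6 and 15.2 CPM in young LPS cultures. In aged cultures it stood at 26.3, 27.5, 27.6, 25.6 and 23.6 CPM without and at 16.6, 17.3, 19.4, 18 and 16.8 CPM with LPS. LPS and untreated groups were apart at both ages, and aged LPS cultures lay above young LPS cultures without overlap. The changes were -0.72 ± 0.08 (adjusted p = 2.22e-08) in young and -0.57 ± 0.07 (1.06e-06) in aged cells, and 0.25 ± 0.08 (0.0203) between aged and young LPS cultures, the last lost without replicate 2, 3 or 4.

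Ndufaf4, an early complex I assembly factor, was the one member by the symbol rule called between untreated groups. It stood at 23.2, 27.9, 28, 29.6 and 26.8 CPM in young and at 30.1, 34.9, 32.3, 31.8 and 31 CPM in aged cultures, which did not overlap (0.24 ± 0.07, adjusted p = 0.0312). In aged cells it was lower with LPS (-0.18 ± 0.07, 0.0350). The untreated call was lost without replicate 1, 2, 3 or 5 and the LPS call without replicate 2, 3 or 5. Ndufaf5 was higher in aged than young LPS cultures (0.22 ± 0.08, 0.0363), a call lost without replicate 2, 4 or 5, and Atp5s was lower with LPS in young cells (-0.46 ± 0.11, 0.000647).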

How the data were processed

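RNA from 20 BV-2 cultures was sequenced from stranded poly(A) libraries, and the authors deposited whole-number counts per Ensembl gene. Per the study's methods and the submitters' processing notes, reads were aligned to GRCm38 with STAR 2.6.1d and counted with featureCounts 1.5.1, and the authors used DESeq2. The notes also list GRCh38 and hg19 with no role. Strand, multiple-alignment and overlap settings are not given in the sources used here, so counts of genes that overlap or have close copies are uncertain. The members and gene lists were chosen with earlier results of these data known.

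Groups and batches came from the labels. Symbols and positions came from GENCODE M21, which held 55227 of 55487 identifiers. One model across all 20 libraries, with group as its only factor, was fitted in R 4.3.3 with edgeR 4.0.16 (built on limma 3.58.1) after TMM scaling and filterByExpr (12799 genes kept), and contrasts were tested by quasi-likelihood with Benjamini-Hochberg adjustment over all of them. The threshold for a call was an adjusted p of 0.05. Intervals are 95% intervals of the fit. CPM uses TMM-scaled library sizes, and values per kilobase divide it by the union of annotated exons. The code was tested on simulated counts.

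Batch numbers recur in all groups, so the fit with the batch as replicate block stands beside results it changes. After group means were removed, cultures of 1 batch correlated at 0.146 on average over 30 pairs (range -0.214 to 0.394). Untreated and LPS cultures of 1 age correlated at 0.122 to 0.394, whereas young and aged cultures of 1 treatment correlated at -0.214 to 0.275 (mean 0.077), so the pairing has little support in the data for comparisons between ages. Alternatives were other scalings and filters, DESeq2 1.42.0, the compared groups alone, an adjusted p below 0.01 and leaving out each replicate number. Named genes are the mitochondrially encoded members, complex II, the isoform pairs, 7 pathway genes (Cycs, Cyc1, Ucp2, Tfam, Ppargc1a, Ppargc1b and Nrf1), and the 5 called members with the largest change in each direction per comparison. A count of 3 was the floor, which covers counting error only.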

Additional observations from a re-analysis of the deposited data

Results flagged for a closer look

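Within groups of 5 cultures, 10 of 152 checked sets of values held a culture far from the other 4, and chance gives about 1 in 20. In aged LPS cultures replicate 1 was low for mt-Cytb at 529 CPM (others 816 to 909), mt-Nd4 at 223 CPM (347 to 368) and mt-Nd5 at 520 CPM (803 to 856). Replicate 3 was high for Ucp2 in both aged groups, at 474 CPM without LPS (373 to 390) and 347 CPM with it (268 to 284). Single cultures stood apart for Atp5g3 (445 CPM in young untreated replicate 5, others 380 to 398), Cox6a2 (0.362 CPM in young untreated replicate 3, others 0.923 to 1.13), Uqcrb (73.3 CPM in aged LPS replicate 5, others 64.2 to 66.7), Tfam (45.6 CPM in aged LPS replicate 4, others 37.8 to 39.9) and Nrf1 (45.4 CPM in young LPS replicate 1, others 34.6 to 37.6).

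The LPS response differed between aged and young cells, by the interaction in edgeR, for 6 of 143 tested listed genes around the complexes (4.2%, beside 6.39% of all genes tested; 8 or 5.59% with the block, beside 9.03%), with negative values where the rise was smaller in aged cells and positive ones where the fall was smaller. Gpd2, the mitochondrial glycerol-3-phosphate dehydrogenase that feeds electrons to ubiquinone, had an interaction of -0.55 on the log2 scale (adjusted p = 0.000201), from 112 ± 3.5 to 321 ± 31 CPM in young and from 127 ± 3.8 to 247 ± 11 CPM in aged cells. Coa5, a complex IV assembly factor, had -0.42 (0.00336), and Pnpt1, which degrades mitochondrial RNA, -0.41 (0.0138). Cmc2, another complex IV assembly factor, had 0.36 (0.0114), and the subunits of mitochondrial DNA polymerase, Polg and Polg2, had 0.25 (0.0492) and 0.67 (0.0220).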

How the results depend on the processing

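With library size alone the nuclear subunits called numbered 61 in young and 46 in aged cells, and 4 between aged and young LPS cultures, with medians of -0.26, -0.20 and 0.038, and 3 mitochondrial genes were called with LPS in aged cells. Of the 12799 genes tested, 6401, 5476 and 1353 were called lower and 2407, 2172 and 3167 higher in these 3 comparisons. With upper-quartile factors 35 and 23 nuclear subunits were called with LPS in young and aged cells, at medians of -0.13 and -0.12. Over all genes tested, 5122 and 4395 were called lower there and 3246 and 2736 higher. These scalings set the level that each library is divided by, and the median over all genes moved with them. Library size alone also turned Uqcrb (-0.074, young) and Cox6c (-0.017, young, and -0.0018, aged). With the replicate block, nuclear calls numbered 6, 31, 19 and 6 in the 4 pairwise comparisons in the order aged against young untreated, LPS in young, LPS in aged and aged against young LPS, and mitochondrial calls 5 with LPS in aged cells and 1 between LPS groups. The members that are not subunits went from 1 to 3 calls between untreated groups, from 2 to 3 with LPS in young cells and from 2 to 3 between LPS groups. None of the 35 calls of a member was lost with the block. An adjusted p below 0.01 left 11 nuclear calls in young LPS and 0 between LPS groups, by its own construction, and without a filter 1 mitochondrial gene was called with LPS in aged cells, for which the cause was not tested. Leaving out each replicate number gave 13 to 18 nuclear calls with LPS in young and 7 to 9 in aged cells, 0 to 2 between LPS groups (0 without replicate 2, 2 without replicate 1), and 0 to 3 mitochondrial calls with LPS in aged cells (3 without replicate 1). Of 35 called pairs of member and comparison, 21 held under all 13 alternative fits. DESeq2's test ended 5 (Ndufa6, Ndufs1 and Uqcr11 with LPS in young cells, Cox6c with LPS in aged cells and Ndufaf5 between LPS groups), and DESeq2's size factors ended those of Ndufs1 and Uqcr11. Testing without a filter ended 6 (Uqcrb in young, Cox6c and Ndufaf4 in aged cells, Ndufaf4 between untreated groups, and Ndufaf5 and Ndufaf7 between LPS groups). Upper-quartile factors ended 3 (Uqcrb and Cox6c in young and Cox6c in aged cells). The mitochondrial genes had a median standard error of 0.21 with LPS in aged cells, which limits what could be called at 5 cultures.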

Other observations

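Genes of ubiquinone metabolism and of electron entry beside complexes I and II, which were picked here after their values were seen, changed in several directions. Coq10b and Coq10a encode ubiquinone-binding proteins of the same family. Coq10b rose with LPS from 9.53 ± 0.9 to 24.3 ± 2 CPM in young and from 10.5 ± 1.5 to 21.5 ± 2.4 CPM in aged cells (log2 fold changes of 1.35 and 1.04, edgeR adjusted p = 5.85e-11 and 6.65e-09). Coq10a fell by 0.70 and 0.49 on the log2 scale (1.8e-07 and 3.16e-05). Coq9, needed for ubiquinone synthesis, fell by 0.57 and 0.52 (2.84e-08 and 1.78e-07). Sqor, which passes electrons from sulfide to ubiquinone, was lower in aged than young cells without LPS, at 12.5 ± 2.2 against 26.4 ± 2 CPM (-1.08, 1.2e-06), and with it (-1.04, 1.09e-06), and was not called on LPS.

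Of 7 tested genes for assembly or inhibition of ATP synthase, 6 were called lower with LPS in young and 4 in aged cells and none higher, with medians of -0.29 and -0.24. That is 85.7% and 57.1% called lower, beside 33.5% and 26.9% of all genes tested, with no test of the list. Atpaf2, a chaperone for the catalytic head, stood at -0.44 and -0.26 (2.08e-06 and 0.00102), and Tmem70 at -0.18 and -0.23 (0.00591 and 0.00109). Atpif1, the inhibitor of the enzyme, was the 1 gene of the list without a call at either age (-0.04 and -0.03). Atp5s and Atpaf1 were called in young cells and not in aged cells, and neither differed between ages by a call of the interaction.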
